A study of Drosophila melanogaster with 12 samples.

Results

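The 200 transcripts described here are known *Drosophila* transcripts that were abundant and steady in control larvae. They were chosen among the 31271 rows of the deposited table that carry a FlyBase transcript name, out of 41081 rows in all. A row qualified if its highest normalized count over the 6 control libraries was under 2 times its lowest, which 6848 rows did, and the 200 with the highest control mean were kept. The levels and the small spread in control libraries were therefore fixed by the choice and are given as a description. The values in mutant libraries played no part in it.

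*ISWI* encodes the ATPase of several chromatin remodeling complexes, which slide and space nucleosomes along DNA. Transcripts at the top of a larval transcriptome largely come from genes that many cells use at a high rate and from genes of large tissues such as fat body, muscle, gut and epidermis. In whole larvae, a lower level can come from fewer cells of a tissue or from less RNA per cell, and these cannot be told apart.

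Whole larvae of the third instar were sequenced in 4 groups, with 3 libraries per group. Control females and control males had the genotype +/+, and mutant females and mutant males carried the allele pair Iswi1/Iswi2. All stocks were kept at 25 degrees. The parents of the mutants were *yw* stocks with each allele over a CyO balancer that expresses GFP, and the mutant larvae were recognized by the absence of GFP, whereas the controls were wild type. Genotype and strain background therefore differ together between the groups and cannot be told apart. Each library was a pool of whole larvae, and the labels do not say whether pools came from separate cultures. The p-values therefore measure the spread between these libraries, which may be partly technical.

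The values are read counts of transcripts divided by 1 size factor per library, and whole reads could be recovered from them. The reads assigned to the rows summed to between 89290368 and 119202607 per library. Summed over all rows, the normalized counts were between 89247348 and 96529228 in control females and between 102442256 and 113814353 in mutant females. Replicate 2 stood apart in both male groups, with a sum of 69564333 in control males and 77085708 in mutant males, against 91112098 to 113186549 in the other 4 male libraries. Reads of transposable element (TE) insertions made up between 0.574% and 1.16% of a control library and between 2.08% and 5.95% of a mutant library.

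The control means of the 200 transcripts ran from 21717 to 603989 normalized counts, with a median of 47865. At the lower end of the order, the last 2 transcripts kept had control means of 21717 and 21776, and the next 2, not kept, had 21575 and 21385. The highest ratios of the highest to the lowest control value among the 200 were 1.995 and 1.958. The abundant transcripts closest to the limit on the other side had ratios of 2.0007 and 2.014. The 2 most abundant known transcripts of the table, with control means of 6114790 and 6090190, had ratios of 3.83 and 3.75 and were kept out. In all, 385 known transcripts were at least as abundant as the last one kept, so 51.9% of them were steady by this measure. The other 185 serve below for comparison.

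The table names transcripts without pairing them with genes. Through the synonyms of the RefSeq gene table (assembly Release 6 plus ISO1 MT), 27 known transcripts of the table could be tied to a gene symbol. Of these, 4 are among the 200, and the other 196 stay without a gene name. FBtr0086701 belongs to *Pepck1*, which encodes phosphoenolpyruvate carboxykinase, an enzyme of gluconeogenesis, at 18536767 to 18539416 on chromosome 2R. The synonyms place an upstream reading frame, annotated as the gene CG45087, on the same transcript. FBtr0077014 belongs to *LanA*, a laminin alpha chain of basement membranes, at 6203831 to 6218022 on 3L. FBtr0072789 belongs to *alpha-Spec*, the alpha chain of spectrin in the cytoskeleton under the cell membrane, at 1778485 to 1795328 on 3L. FBtr0088499 belongs to *Uba1*, the enzyme that activates ubiquitin, at 9688289 to 9693328 on 2R. These positions are those of the whole genes. Other transcripts of these genes may be present in the table under names that could not be tied to them.

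The 200 transcripts held a smaller part of the library in mutants than in controls. Their share of the reads was 14.7%, 15.5% and 15.7% in the control female libraries and 11.9%, 12.4% and 12.5% in the mutant female libraries. In males it was 14.9%, 16.4% and 13.2% in controls and 14.03%, 11.8% and 12.2% in mutants. The female groups did not overlap, and the male groups did: mutant male replicate 1 lay above control male replicate 3. The Wilson 95% interval of each share reached at most 0.00723 percentage points to either side and covers counting error only. In females the mean share was 15.3% ± 0.51 (SD, n = 3) for controls and 12.2% ± 0.328 for mutants. In males it was 14.8% ± 1.61 for controls and 12.7% ± 1.19 for mutants. The mutant mean was 80.0% of the control mean in females and 85.3% in males. No test of mutants against controls was made on the share, since control values chose the transcripts. A choice by a high control mean favors a lower share in mutants. Mutant males and mutant females, which the choice did not use, differed by 0.43 percentage points, and the exact permutation test (two-sided) gave p = 0.9, where 0.1 is the smallest p that 3 against 3 libraries allow. Transcripts with a large sex difference in controls had been kept out by the choice.

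On the scale of normalized counts the difference was smaller relative to the spread. In females the 200 transcripts summed to 14218178, 14362211 and 14012093 in the control libraries and to 13505066, 12686951 and 13669488 in the mutant libraries, without overlap. In males they summed to 13579958, 11428609 and 14948518 in controls and to 13691365, 9105676 and 13285473 in mutants, and these groups overlapped. Mutant male replicate 2, whose whole library also had a low sum, was the lowest of the 12.

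**Figure D1:**
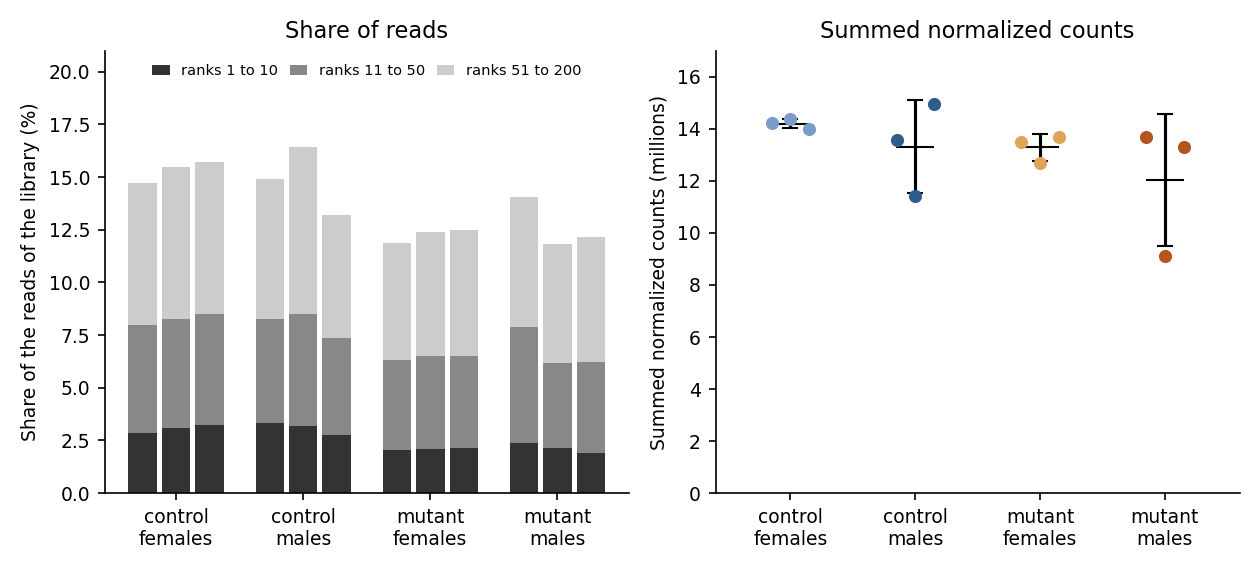
Left, share of the reads of each library (percent, 1 bar per library, replicates 1 to 3 from left to right in each group) held by the 200 transcripts, divided by their rank in control abundance; right, their summed normalized counts (points, libraries; line and bars, mean and SD, n = 3). The share is 13.2% to 16.4% in the control libraries and 11.8% to 14.03% in the mutant libraries, and the lowest sum is that of a mutant male library with 9105676.

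By rank, the 10 most abundant held 2.77% to 3.31% of a control library and 1.91% to 2.40% of a mutant library, without overlap. Most of this gap came from the 2 of them that were called lower in both sexes (below), which held 0.738% to 1.14% in controls and 0.0606% to 0.178% in mutants. The other 8 held 2.11% to 2.31% in control females and 1.902% to 2.004% in mutant females, without overlap, and 1.92% to 2.27% in control males and 1.85% to 2.34% in mutant males, with overlap. For ranks 11 to 50 the share was 4.58% to 5.31% in controls and 4.01% to 5.51% in mutants. For ranks 51 to 200 it was 5.85% to 7.93% in controls and 5.54% to 6.13% in mutants. In both of these lower ranges the male groups overlapped and the female groups did not: ranks 11 to 50 held 5.12% to 5.31% in control females and 4.26% to 4.42% in mutant females, and ranks 51 to 200 held 6.76% to 7.21% and 5.54% to 5.97%.

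In both sexes, 22 of the 200 had a mutant mean below 50% of the control mean. This group was picked by its change and is given as a description. It held 1.63% to 2.28% of the reads in control libraries and 0.262% to 0.519% in mutant libraries, with means of 1.93% and 0.373%. The other 178 held 11.6% to 14.1% in controls and 11.3% to 13.7% in mutants. The male groups overlapped, but the female groups did not, with 13.0%, 13.5% and 13.8% in controls and 11.5%, 12.02% and 12.03% in mutants. Summed as normalized counts, the 178 did overlap in females, at 12327405 to 12550775 in controls and 12317907 to 13189050 in mutants. Mutant female replicates 1 (13098731) and 3 (13189050) lay above every control female library, and replicate 2 (12317907) lay below. The lower share of the 178 in mutant females was therefore not seen in these sums.

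The change of each transcript was tested with limma on log2(normalized count + 1), fitted over all 35284 rows with a value of at least 10 in at least 3 libraries, and a transcript was called if its Benjamini-Hochberg adjusted p over all these rows was under 0.05. All 200 transcripts passed the filter. In mutant females, 47 of the 200 (23.5%) were called, against 12.8% of all rows tested. Of these, 40 were lower (5.68% of all rows) and 7 were higher (7.12% of all rows). At an unadjusted p under 0.05 there were 73 (26.3% of all rows). In mutant males, 49 (24.5%) were called, against 16.2% of all rows. Here 42 were lower (9.12% of all rows) and 7 higher (7.11% of all rows), with 70 at an unadjusted p under 0.05 (30.6% of all rows). Transcripts with a small control spread were chosen, which also makes a difference of a given size easier to call, so the size of these counts says nothing particular of the transcripts. They were also chosen by a high control mean, which favors falls over rises, so neither does the direction. When the spread was taken from the mutant libraries alone, which the choice did not use, 27 were called in each sex (13.5%), against 9.37% of all rows in females and 10.1% in males. Of these, 3 were higher in females and 4 in males, and the share of all rows is not given by direction for this setting. In separate fits of the sexes, the male count was 26 (13%), against 8.62% of all rows, and that in females was 53 (26.5%), against 13.7%. The edgeR quasi-likelihood test on recovered reads called 39 in each sex (9.57% of all rows in females and 9.27% in males), and DESeq2 called 68 in females and 61 in males (21.7% and 21.5% of all rows).

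The calls of both sexes fell on many of the same transcripts. There were 34 lower in both sexes (3.21% of all rows) and 4 higher in both (4.38% of all rows). A further 6 were lower in females alone (2.47% of all rows) and 8 in males alone (5.79%), 3 were higher in females alone (2.61%) and 3 in males alone (2.72%), and 0 were called in opposite directions. The remaining 142 were called in neither sex. A call in 1 sex alone is no test of a difference between the sexes. Females and males were compared in different libraries. Across the 200 transcripts, the log2 fold changes in females and males had a Pearson's r of 0.91 and a Spearman's rho of 0.87. For the other 185 abundant known transcripts r was 0.83 and rho 0.76, and for all 35284 rows r was 0.52 and rho 0.44. Transcripts are not independent replicates, and transcripts of a gene share reads, so these values are a description. The choice also kept out transcripts with a large sex difference in controls, which favors alike changes in the 200 over those of all rows.

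**Figure D2:**
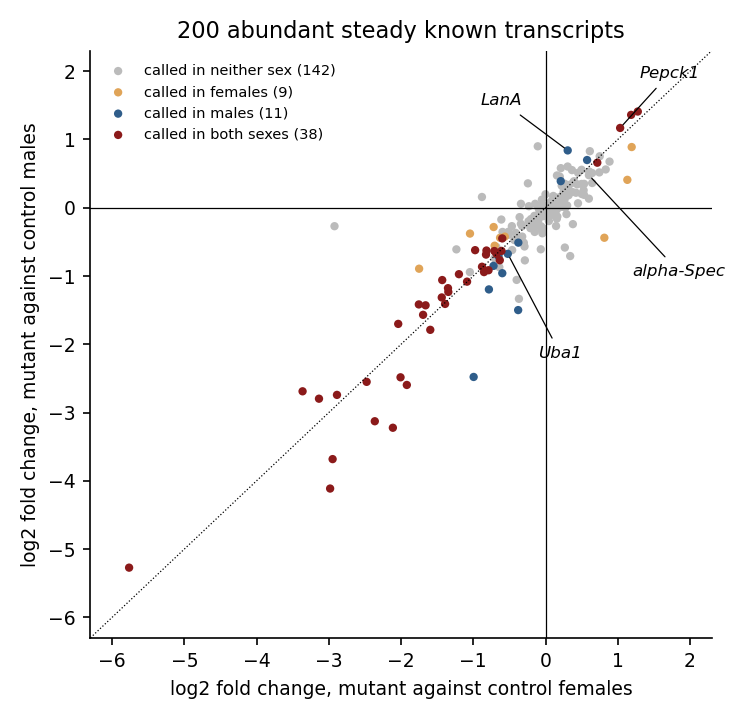
Each point is 1 of the 200 transcripts, placed by its log2 fold change in mutant against control females (x axis) and mutant against control males (y axis) from limma; the dotted line marks equal changes, colors mark the calls, and the 4 transcripts with a gene symbol are labelled. Of the 200, 34 were called lower and 4 higher in both sexes, and 142 were called in neither sex.

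Most of the 200 kept their level within 2-fold. The mutant mean lay within 2-fold of the control mean in both sexes for 164 of them, and within 0.5 on the log2 scale for 104. Per sex, 16% of the 200 in females and 14.5% in males lay beyond 2-fold, against 42.3% and 44.7% of all rows tested. The median log2 ratio of group means was -0.04 in females and -0.09 in males, against 0 and -0.08 over all rows tested. The quartiles of the 200 were -0.59 and 0.24 for females and -0.61 and 0.18 for males. Over all rows they were -0.72 and 0.88 for females and -0.93 and 0.77 for males. All rows include rows of low counts, and the choice of abundant transcripts with a small control spread favors small ratios. The narrower range of the 200 therefore says nothing particular of them. With scaling to total reads, the median over all rows moved to -0.17 (females) and -0.16 (males), and that of the 200 to -0.27 and -0.17. The sign of the small median in males turned with single libraries: it was 0.04 without control male replicate 3 and 0.10 without mutant male replicate 2.

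**Figure D3:**
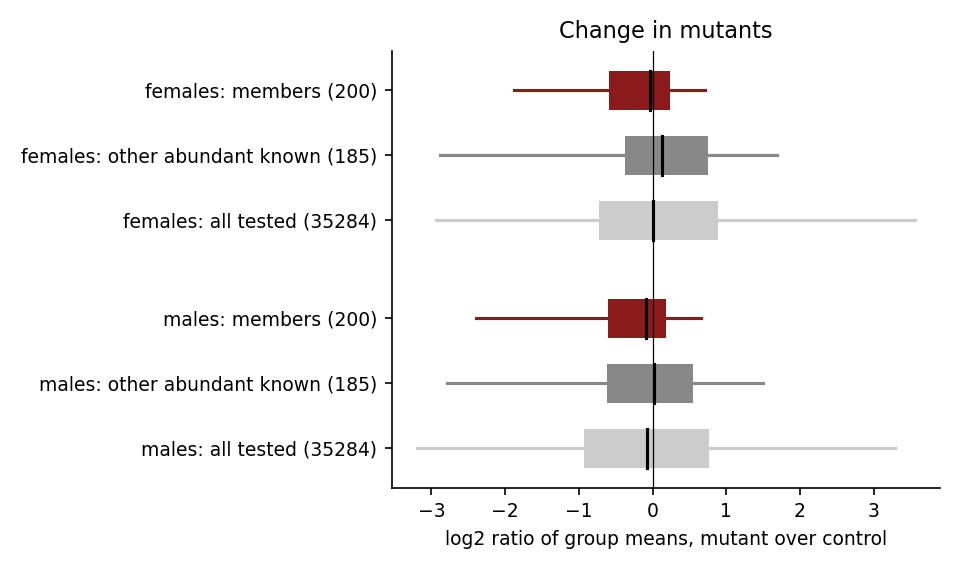
Log2 ratio of group means, mutant over control, for the 200 transcripts, the other 185 known transcripts of at least the same abundance and all 35284 rows tested, in females and males (box, quartiles; black line, median; thin line, 5th to 95th percentile). The thin line of the 200 reaches from -1.88 to 0.72 for females and from -2.39 to 0.66 for males, farther below 0 than above it. The choice by a high control mean favors such a lean.

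The libraries of the 2 genotypes did not overlap for 121 of the 200 in females (35.5% of all rows) and for 72 in males (34.3% of all rows). In females 70 lay below the controls (17.9% of all rows) and 51 above (17.5%). In males 56 lay below (19.8%) and 16 above (14.5%). In both sexes, 49 lay below (7.78% of all rows) and 11 above (8.37%). The choice limited the range of the controls, which makes an absence of overlap more likely. The size of these counts therefore says nothing particular of the transcripts.

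Called falls in females had log2 fold changes of -5.76 to -0.56, with a median of -1.37. Those in males had -5.27 to -0.45, with a median of -1.21. In both sexes, 9 of the 200 had a mutant mean below 25% of the control mean. Per sex this held for 9 in females and 12 in males, against 2962 and 4230 of the 35284 rows tested. By rank of abundance, called falls made up 2 of the first 10 in each sex, 4 in females and 2 in males of ranks 11 to 50, and 34 in females and 38 in males of the 150 at ranks 51 to 200. Over all rows tested, called falls made up 5.68% in females and 9.12% in males. A choice by a high control mean favors falls, so the counts by rank are given as a description. The other 8 of the first 10 were not called in either sex, with log2 fold changes between -0.34 and 0.38 (females) and between -0.42 and 0.46 (males).

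The most abundant of the 200 was among the falls. It had normalized counts of 524018, 591874 and 582235 in control females and of 153217, 94461 and 154113 in mutant females. In males it had 756207, 478800 and 690800 in controls and 51893, 104790 and 56545 in mutants. Every mutant library lay below every control library. Limma gave a log2 fold change of -2.11 for females (adjusted p = 0.0015) and of -3.22 for males (adjusted p = 9.2e-05), with a standard error of 0.30 each. Both calls held under every alternative that was run.

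By the limma estimate, the largest fall in each sex was that of FBtr0080589. By the ratio of group means its fall was -5.39 on the log2 scale in females and -3.58 in males, where FBtr0076160 fell farther (-3.87). It had 27112, 37708 and 26600 in control females and 309, 359 and 1517 in mutant females. In males it had 19856, 33972 and 27339 in controls and 333, 6309 and 151 in mutants. The mutant libraries were all below the controls, but their spread was wide: in mutant males the highest was 41.8 times the lowest. The limma estimate was -5.76 on the log2 scale for females (adjusted p = 0.0091) and -5.27 for males (adjusted p = 0.013), with a standard error of 1.15. With the spread of the mutant libraries alone the adjusted p was 0.087 (females) and 0.098 (males). In males the call was also lost with edgeR (-3.58, adjusted p = 0.11) and with the sexes fitted separately (adjusted p = 0.068).

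FBtr0076160, the sixth in abundance, fell in both sexes. It had 188178, 220705 and 225374 in control females against 29108, 19942 and 32716 in mutant females. The males had 286719, 172679 and 278195 in controls against 8607, 32125 and 9610 in mutants. Its log2 fold change from limma was -2.98 for females (adjusted p = 0.0019) and -4.11 for males (adjusted p = 0.00025), with a standard error of 0.45. With the spread of the mutant libraries alone, the adjusted p from limma was 0.035 (females) and 0.013 (males). Mutant male replicate 2 was again the highest of the mutant males. The interaction of sex and genotype was -1.13 on the log2 scale, with an adjusted p of 0.59 in limma, and was not called. Without mutant male replicate 2 the interaction was -1.74 (standard error 0.36, adjusted p = 0.033 from limma).

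Rises were fewer and smaller. A choice by a high control mean favors falls over rises, so this balance is given as a description. Called rises had log2 fold changes of 0.72 to 1.28 (females) and of 0.39 to 1.41 (males), and all of them were at ranks 51 to 200. The count of 7 rises per sex depended on the method and on single libraries. DESeq2 called 17 rises in females (11.9% of all rows) and 14 in males (10.5%), and separate fits of the sexes called 10 (7.57%) and 2 (3.91%). In females it fell to 3 without control female replicate 1 or 3 and to 4 without control female replicate 2 or mutant female replicate 1 or 3, and was 11 without mutant male replicate 2 and 12 without mutant male replicate 3. In males it fell to 4 without any of the control males or without mutant male replicate 3, and was 16 without mutant male replicate 2. The shares over all rows are not given for the settings with a library left out. These shifts therefore say nothing particular of the transcripts. In both sexes, 3 of the 200 had a mutant mean above 2 times the control mean, together 0.133% to 0.190% of the reads in control libraries and 0.273% to 0.3598% in mutant libraries. These 3 are FBtr0074859, FBtr0082101 and the transcript of *Pepck1*. Counted per sex, 5 of the 200 in females and 3 in males were above 2 times, against 8170 and 7403 of the 35284 rows tested.

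FBtr0074859 had 28619.6, 38025 and 38527 in control females and 74697, 95941 and 83355 in mutant females. The male libraries had 26448, 22221 and 40732 in controls and 64749, 62873 and 110286 in mutants. The groups did not overlap in either sex. Limma gave 1.28 on the log2 scale for females (adjusted p = 0.014) and 1.41 for males (adjusted p = 0.0079), with a standard error of 0.28. With the spread of the mutant libraries alone, the adjusted p from limma was 0.046 (females) and 0.034 (males). Without control female replicate 1 the adjusted p in females was 0.057, and with the sexes fitted separately it was 0.060 in males.

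FBtr0082101 was measured at 70492, 66180 and 93423 in control females and at 165291, 164890 and 188116 in mutant females. The male libraries had 60190, 53817 and 75022 in controls and 176357, 118390 and 197226 in mutants. All mutant libraries lay above all controls. Limma gave 1.19 on the log2 scale for females (adjusted p = 0.0071) and 1.36 for males (adjusted p = 0.0031), with a standard error of 0.22. With the spread of the mutant libraries alone, the adjusted p from limma was 0.039 (females) and 0.025 (males).

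The transcript of *Pepck1*, FBtr0086701, rose in both sexes. It had 43008, 33678 and 38004 in control females and 70821, 77134 and 86342 in mutant females. In males it had 38182, 30960 and 35228 in controls and 84659, 65356 and 85580 in mutants, so that the 6 mutant libraries lay above the 6 controls. Its log2 fold change from limma was 1.03 for females (adjusted p = 0.0028) and 1.17 for males (adjusted p = 0.0013), with a standard error of 0.16, and both calls held under every alternative that was run.

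The other 3 transcripts with a gene symbol changed less. *LanA* had 34638, 40889 and 34839 in control females and 41083, 46391 and 49046 in mutant females, and 27901, 38241 and 25160 in control males and 49132, 61076 and 51319 in mutant males. The mutants lay above the controls in both sexes, and the call was made in males, with a log2 fold change of 0.84 (adjusted p = 0.012 from limma) against 0.31 in females (adjusted p = 0.31). The difference between the sexes was not called (adjusted p = 0.49). In males the call was lost with scaling to total reads (adjusted p = 0.13) and with the sexes fitted separately (adjusted p = 0.080).

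*Uba1* had 26418, 30329 and 24715 in control females and 16428, 19015 and 21402 in mutant females, and 26771, 32551 and 24168 in control males and 16107, 20079 and 15994 in mutant males. The mutants lay below the controls in both sexes. Its log2 fold change was -0.68 for males (standard error 0.17, adjusted p = 0.025 from limma) and -0.52 for females (adjusted p = 0.077), and the call was made in males. The call in males was lost under 4 of the 6 settings that each left out a male library, with adjusted p between 0.063 and 0.077, with the spread of the mutant libraries alone (0.072), with scaling to total reads (0.13) and with the sexes fitted separately (0.099).

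*alpha-Spec* had 27431, 29527 and 29830 in control females and 42343, 42572 and 46746 in mutant females, which did not overlap. In males it had 29355, 27644 and 23314 in controls and 28413, 43696 and 41131 in mutants, and mutant replicate 1 lay within the controls. It was called in neither sex, with 0.60 on the log2 scale for females (adjusted p = 0.0504 in limma) against 0.48 for males (adjusted p = 0.095), each with a standard error of 0.18. The value for females was at the threshold: its adjusted p was 0.0062 with DESeq2 and 0.014 with the sexes fitted separately, but 0.15 with the spread of the mutant libraries alone, and with scaling to total reads the log2 fold change was 0.37 (adjusted p = 0.43). Without mutant male replicate 1, the fold change in males was 0.67 (adjusted p = 0.022).

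**Figure D4:**
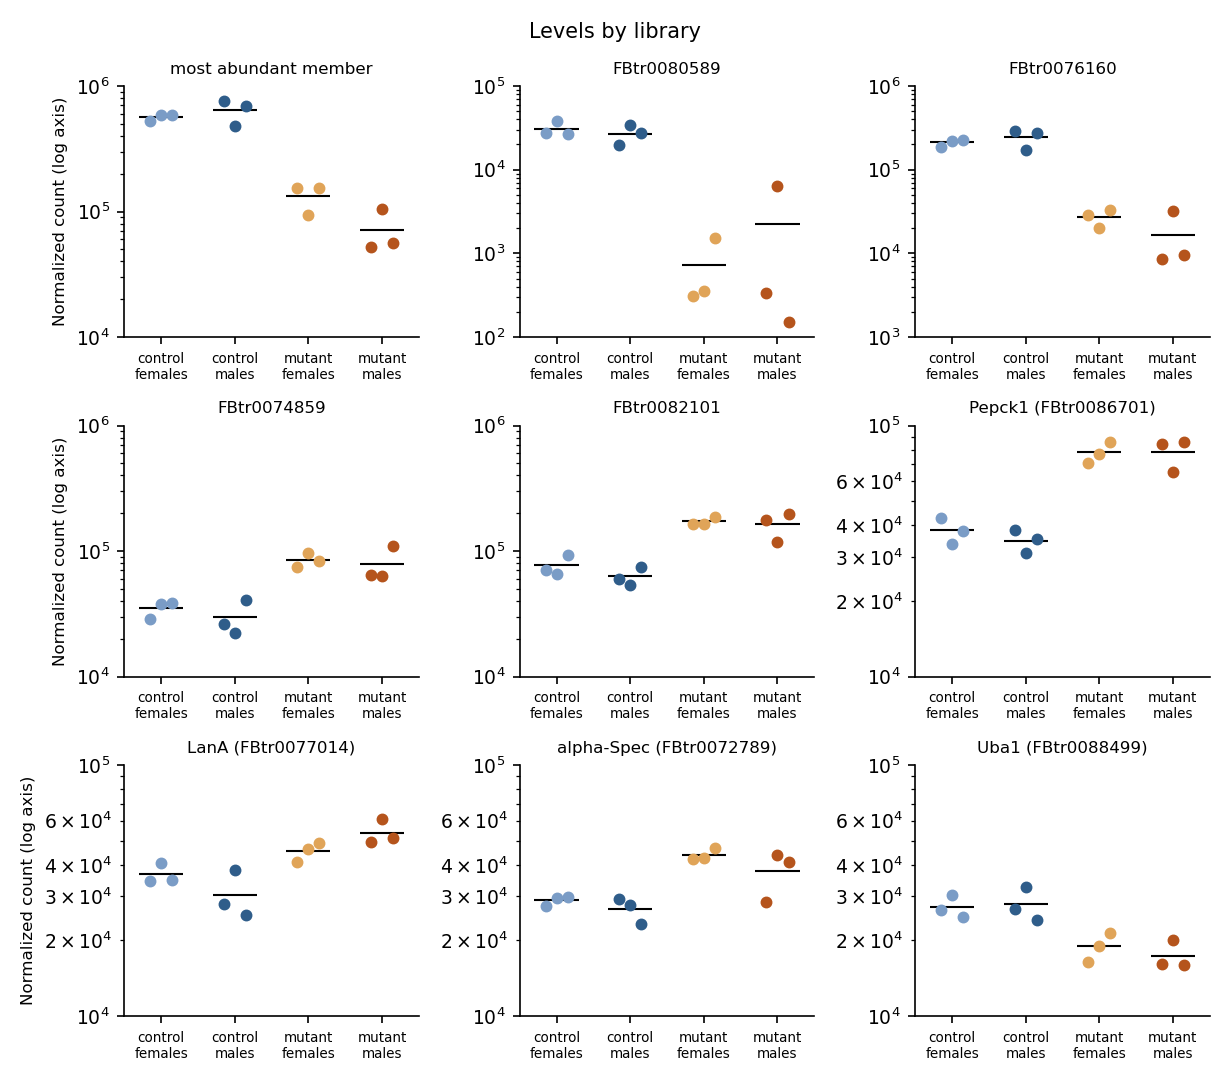
Normalized counts (log axis) of 9 transcripts in each library (points) with the group mean (line) in control females, control males, mutant females and mutant males. The most abundant transcript, FBtr0080589 and FBtr0076160 lie lower in every mutant library than in every control library, and FBtr0074859, FBtr0082101 and *Pepck1* lie higher; among the mutant males *alpha-Spec* has 1 library, at 28413, within the range of the controls.

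Mutant males and mutant females were compared in a fit of the 6 mutant libraries, whose values did not choose the transcripts. The choice did keep out transcripts that differed by 2 times or more between control males and control females. Few differences between the mutant sexes were therefore favored in advance, and the low counts say nothing particular of the transcripts. Of the 200, 0 were called, against 1.14% of all rows (1.05% higher and 0.0935% lower in males). The other tools also called 0, edgeR against 0% and DESeq2 against 4.43% of all rows. At an unadjusted p under 0.05 there were 8 (4%), against 9% of all rows. The log2 fold changes of males against females ran from -1.28 to 3.05, with a median standard error of 0.29. The mean was lower in mutant males for 161 of the 200, with a median log2 ratio of -0.15. This lean rested on a single library and on the scaling: without mutant male replicate 2 the count was 89 and the median 0.02, and with scaling to total reads the count was 79 and the median 0.04. The libraries of the mutant sexes did not overlap for 13 of the 200 (14.4% of all rows), of which 2 were higher in males (9.91%) and 11 lower (4.48%).

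The interaction of sex and genotype was called for 0 of the 200, against 0.799% of all rows (0.125% in the positive and 0.675% in the negative direction), and its smallest adjusted p was 0.15 in limma. At an unadjusted p under 0.05 there were 6 (11% of all rows). The edgeR test called 0 (0.15% of all rows) and DESeq2 called 1 (4.71% of all rows), with an interaction of -1.23 (adjusted p = 0.015). The choice held control females and control males within 2 times of each other, and this difference enters the interaction. The low counts are therefore partly set by the choice and say nothing particular of the transcripts.

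The limit used to choose the transcripts was then applied to the mutant libraries. Over the 6 mutant libraries, the highest value was under 2 times the lowest for 124 of the 200 (62%). Within mutant females this held for 181 (90.5%) and within mutant males for 140 (70%). For the other 185 abundant transcripts the numbers were 41 (22.2%), 141 (76.2%) and 76 (41.1%). Mutant male replicate 2 was the lowest of its group for 149 of the 200, and without it 165 (82.5%) of the 200 and 104 (56.2%) of the 185 stayed under the limit over the 5 other mutant libraries. Control male replicate 2 was likewise the lowest of its group for 122. The median coefficient of variation of the 200 was 12.8% within mutant females and 27.5% within mutant males. Within control females it was 7.84% and within control males 17.4%, both limited by the choice.

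In 14 of the 200, the highest mutant value was over 4 times the lowest, and without mutant male replicate 2 this held for 9. The widest range belonged to the transcript of rank 69, which had 99463, 88104 and 42.6 normalized counts in the mutant female libraries. The last value rests on 38 reads. In the mutant males it had 55766, 37122 and 105612, and in the controls between 46047 and 87169. The other 2 mutant female libraries lay above the controls of their sex, the male groups overlapped, and it was not called in either sex (adjusted p = 0.48 and 0.96 from limma). Reads that fit several transcripts of a locus are shared out by StringTie, and the table does not say which of the 200 come from the same locus. No pair of them had values within 2% of each other in all libraries, as 0 such pairs were found. This cannot show whether any of them share a locus, since transcripts of a locus can differ in level.

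**Figure D5:**
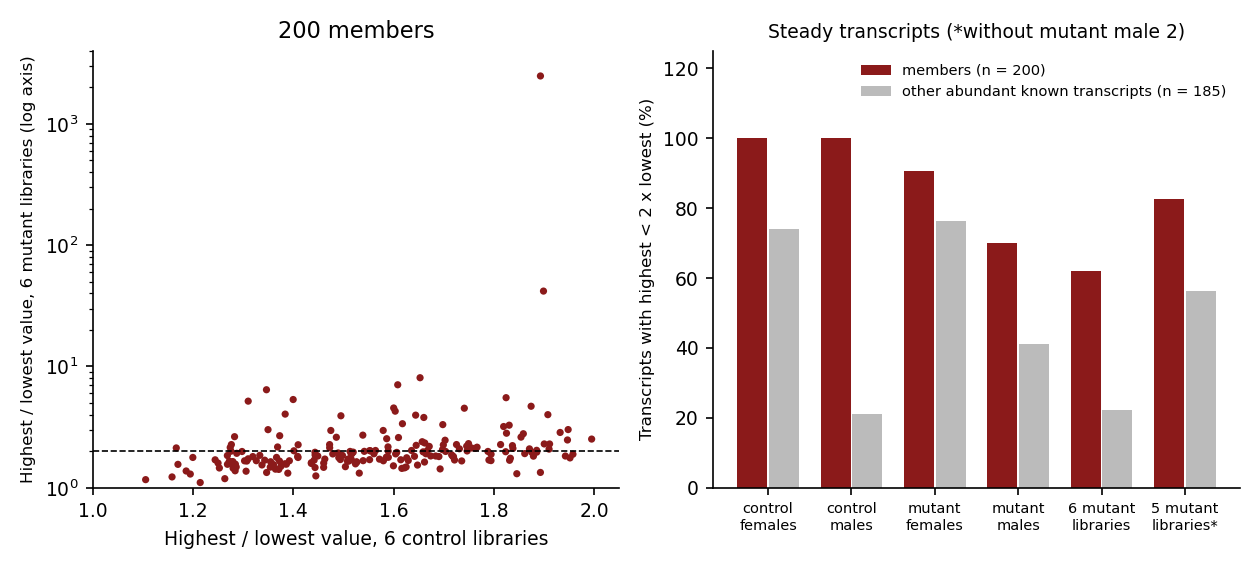
Left, ratio of the highest to the lowest normalized count over the 6 mutant libraries (log axis; dashed line, 2) against the same ratio over the 6 control libraries for the 200 transcripts; right, percent of transcripts whose highest value is under 2 times the lowest, in each group and over the mutant libraries, for the 200 and for the other 185 abundant known transcripts. All 200 are steady in the control groups by choice, and over the 6 mutant libraries 62% of them and 22.2% of the 185 are.

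Finally, the 200 were set beside the 185 known transcripts of at least the same abundance that varied more between controls. Together the 185 held 32.5% to 51.9% of the reads of a control library and 34.2% to 45.4% of a mutant library, with overlap. Called falls were found for 17 of the 185 in females (9.19%) and 18 in males (9.73%), and called rises for 16 (8.65%) and 15 (8.11%). The corresponding values of the 200 were 20% and 21% for falls and 3.5% for rises in each sex. A mutant mean beyond 2-fold of the control mean in either direction was found for 34.1% of the 185 in females and 33.5% in males, against 16% and 14.5% of the 200. The 2 sets differ by the spread that chose them, and the 185 also held a larger part of the reads. Their counts of calls are therefore given side by side without a test. Across the 200, Spearman's rho between the mean over all controls and the mutant mean was 0.78 for either sex, and 168 of them in mutant females and 159 in mutant males still had a mean of at least 21717, the level of the last transcript chosen.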

How the data were processed

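Total RNA of whole larvae of the third instar was depleted of ribosomal RNA and sequenced. Per the labels and the methods of the study, the authors used Trimmomatic (0.39) for trimming and HISAT2 (2.2.1) for mapping to BDGP6, assembled and quantified transcripts with StringTie (2.1.5) and normalized the counts in DESeq2 (1.32.0). The values deposited by the authors are therefore a signal: read counts per transcript divided by a size factor per library, between 0.798 and 1.59. Of the values worth 1000 reads or fewer, 100% came out whole within 0.01, so the sum of reads assigned to the rows of each library is known. StringTie quantified the transcripts, so these reads are estimates, and their sum is not the number of reads sequenced. The spread between libraries, not counting, limits the precision.

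All 12 libraries were used, and groups were taken from their titles. The main test was limma (3.58.1, in R 4.3.3) with 1 mean per group over 12 libraries, or over the 6 mutant libraries for mutant males against mutant females, with an intensity trend. The edgeR quasi-likelihood test (4.0.16) and DESeq2 (1.42.0) served as alternatives on the recovered reads. On these reads, edgeR called 3375 transcripts in females and 3272 in males of 35284, with 100% of the values whole. Tests were tried on simulated data. Other alternatives were TMM normalization, scaling to total reads, no filter or at least 10 reads in every library, pseudocounts of 0.5 and 5, a minimum absolute log2 fold change of 1, each sex fitted separately, the spread of the mutant libraries alone, the replicate number as a block, leaving out each library in turn, and other limits of the choice.

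The transcripts, the gene lists and the tests were chosen with earlier results of these data known. By the rule for names, the first 10 in abundance, the largest rises and falls called in both sexes without overlap, and members at the limits of the choice were considered. Since the table does not pair transcript names with genes, at most 2 names that rose and 2 that fell are printed, beside those tied to a symbol through RefSeq. The gene lists by pathway and tissue, and the check of larval tissue markers, could not be applied for the same reason. *alpha-Spec*, from the cytoskeleton list, and *Uba1*, from the list of proteasome and ubiquitin genes, were the listed genes with a match among the 200.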

Additional observations from a re-analysis of the deposited data

How the results depend on the processing

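The counts of called transcripts moved by over 1.5 times under several alternatives. A minimum absolute log2 fold change of 1 left 15% of the 200 in females and 14% in males, and the spread of the mutant libraries alone left 13.5% in each. With the sexes fitted separately, 13% were called in males. Leaving out each library gave 16.5% to 28% for females and 18% to 26.5% for males. The shares over all rows are not given for the minimum fold change or with a library left out. Whether the 200 moved differently from all rows there was not tested. The 200 chosen with a steadiness limit of 3 times included 1 transcript (0.5%) called between mutant males and mutant females, where leaving out a library gave 0%. The interaction was called for 0.5% with DESeq2 and between 0% and 0.5% with a library left out, the call being FBtr0076160 without mutant male replicate 2. The share of reads in mutant females, 80.0% of that in control females, was 82.3% when taken of the known transcripts, 82.7% without the 10 most abundant and 91.9% with a limit of 3 times, and in males the limit of 3 times gave 94.8%. With a library left out it was 78.5% to 81.2% for females and 80.7% to 90.1% for males. With a limit of 1.5 times, 13.5% of the 200 were steady over the mutant libraries, and between 63.5% and 82.5% with a library left out under the limit of 2. The median log2 ratio in females became -0.27 with scaling to total reads and -0.26 with a steadiness limit of 1.5 times. The cause of these shifts was not tested.

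The correlation of deviations between same-numbered control and mutant libraries was 0.00070 to 0.0096 for females and 0.0073 to 0.19 for males, so the numbers were not taken to pair the samples. With the replicate number as a block, 23% of the 200 were called in females and 22.5% in males, and 0% for the mutant sexes and for the interaction. The shares over all rows are not given for this setting, so these values say nothing particular of the transcripts.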
